A study of Homo sapiens with 6 samples.

Results

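The genes described are 10 of the 22925 in the deposited table: the transcription factor genes TFEB, TFE3 and MITF, the folliculin gene FLCN with its partners FNIP1 and FNIP2, the GTPase genes RRAGC and RRAGD, and the targets GPNMB and UVRAG. They were taken by symbol, and each symbol matched 1 row. Their RNA was measured in HT-1080, an established human fibrosarcoma line with an activated NRAS gene, grown in medium with serum. The 3 control libraries came from cells kept for 48 h in 1% DMSO. The 3 treated libraries came from cells that received 20 μM PhenDC3 for the same time in the same 1% DMSO, so solvent was common to all 6. PhenDC3 is a small molecule that binds G quadruplexes, which are stacked structures of guanine-rich DNA or RNA. Only this 1 cell line, dose and time were measured, and nothing in the labels says that the libraries of a group came from separate cultures.

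TFEB, TFE3 and MITF are related basic helix-loop-helix leucine zipper factors that switch on genes of lysosomes and autophagy. In fed cells the kinase complex mTORC1, recruited to the lysosome by Rag GTPases, phosphorylates TFEB and TFE3 and keeps them in the cytoplasm. Folliculin with FNIP1 or FNIP2 acts on RagC and RagD and is needed for that step, while the folliculin, FNIP and RagC/D genes are themselves known targets of the factors, which closes a feedback loop. The factors are regulated largely by phosphorylation and location, and RNA counts measure neither.

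Whole reads could be recovered from the deposited values, and came to between 12574952 and 14292987 per DMSO library and between 7371056 and 9386691 per PhenDC3 library. RNA of the mitochondrial genome made up 3.72% to 3.96% of reads in DMSO and 15.4% to 15.5% in PhenDC3. DMSO replicate 3 stood somewhat apart from the other DMSO libraries, its reads giving chi-square values of 6.47 and 6.99 for each degree of freedom against 1.69 between the other pair. Values below are normalized counts, that is reads divided by the authors' factor for each library, and log2 fold changes are of PhenDC3 over DMSO on the normalized count plus 1. Adjusted p-values are from limma, fitted over the 16482 genes whose mean reached 5, adjusted by Benjamini-Hochberg and held against 0.05. More cells expressing a gene and more RNA per cell cannot be told apart in these bulk samples.

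All 10 genes were abundant enough to be tested. Expression of 8 rose with PhenDC3, while TFEB and MITF did not pass. None was lower by limma, also at an unadjusted p under 0.05, nor by edgeR or DESeq2. Among all tested genes 29.2% were called higher and 30.4% lower, 59.6% in either direction. The members had a median log2 fold change of 1.10, against -0.02 for all tested genes. They were chosen with earlier results of these data known, so their counts and median are not independent of those results. In the same 8 genes every PhenDC3 library lay above every DMSO library, which held for 31.5% of all tested genes. A log2 fold change of 1 or more was reached by 5 members, GPNMB, RRAGC, FNIP1, FLCN and RRAGD, and by 9.98% of tested genes. The same 8 members were called when DMSO replicate 3, or any other library, was left out.

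**Figure D1:**
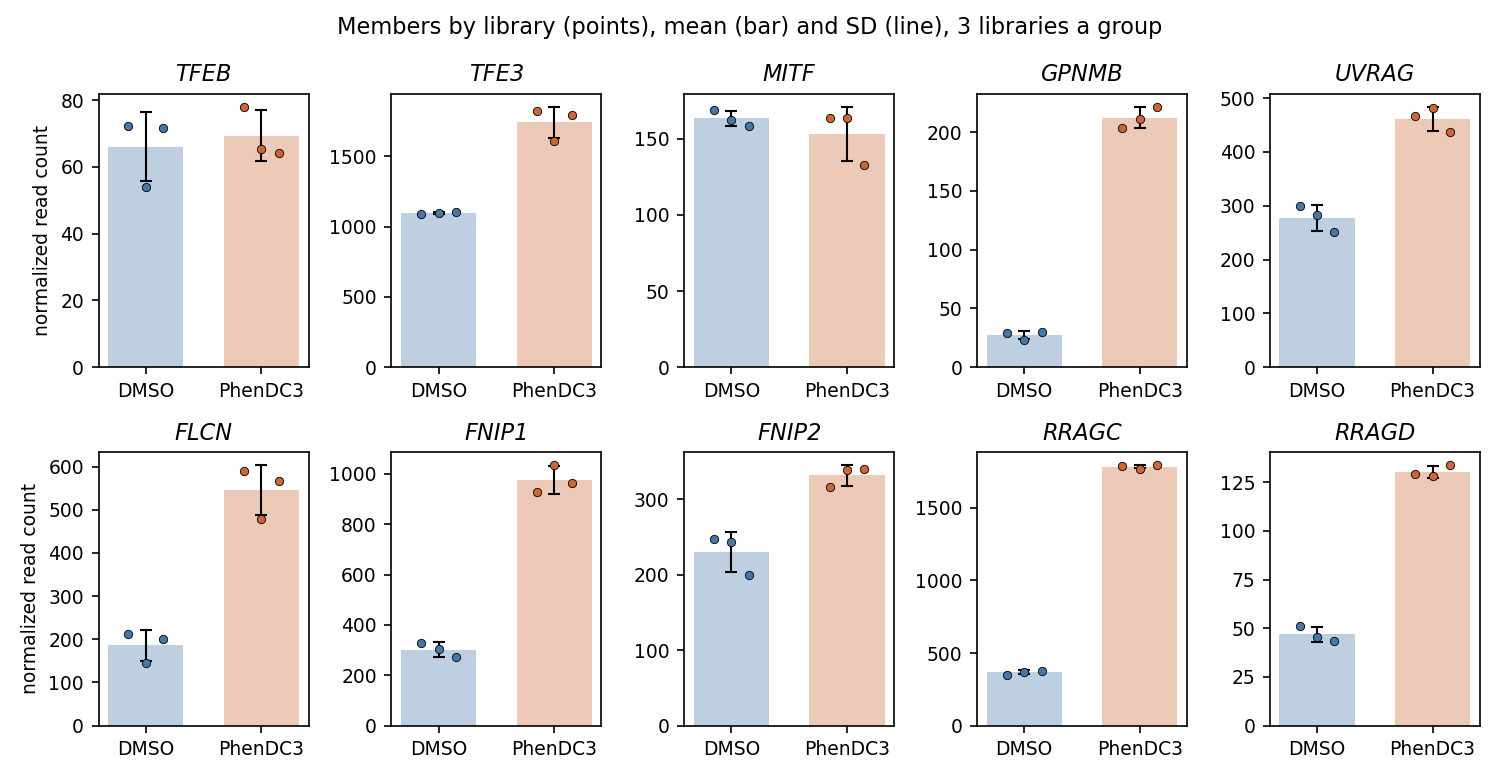
Normalized read counts of the 10 genes (vertical axes, each starting at 0) in DMSO and PhenDC3. Points are libraries, bars are means and lines are SD over 3 libraries. In 8 panels the PhenDC3 points lie above all DMSO points, while in the TFEB and MITF panels the groups overlap.

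Of the 3 transcription factor genes, TFE3 alone passed the test. TFE3 (ENSG00000068323, chromosome X) encodes a broadly expressed member of the family and was the most abundant of the 3. It stood at 1087, 1093 and 1106 normalized counts in DMSO and at 1820, 1611 and 1790 in PhenDC3. The DMSO libraries were nearly identical and the PhenDC3 libraries all lay above them, with replicate 2 the lowest. The mean rose 1.59-fold, from 1096 ± 9.6 to 1740 ± 113 (SD, n = 3; limma, log2 fold change 0.66, SE 0.07, adjusted p = 3.89e-08). A larger log2 fold change was found for 16.9% of tested genes.

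TFEB (ENSG00000112561, chromosome 6), the best studied regulator of lysosome genes, was scarce. Its normalized counts were 72.4, 54.1 and 71.7 in DMSO and 78.1, 65.5 and 64.3 in PhenDC3, from 44 to 104 reads a library. The groups overlapped, with the lowest value in DMSO replicate 2. The log2 fold change was 0.07, with a 95% interval of -0.26 to 0.41 (limma, adjusted p = 0.71), so a modest change in either direction was not detectable at this depth.

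MITF (ENSG00000187098, chromosome 3) is known as the master regulator of pigment cells. Its counts were 169, 162 and 159 in DMSO and 163, 164 and 133 in PhenDC3. The groups overlapped, and all but PhenDC3 replicate 3, the lowest, lay in a narrow range. The log2 fold change was -0.10, with a 95% interval of -0.34 to 0.14 (limma, adjusted p = 0.479). MITF is transcribed from several start sites, and gene-level counts do not separate its isoforms. The related gene TFEC was too low to test, with 1 to 3 reads in each library.

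The promoter of TFE3 is shown because TFE3 is the factor gene that rose and because its window holds a G quadruplex motif. This was searched as 4 runs of at least 3 G that are separated by loops between 1 and 7 bases long. Such a motif was in 25% of all promoter windows, and also in windows of TFEB, which did not pass. Any link of the motif to the rise was not tested. The 250 bases before the start site (RefSeq, GRCh38.p14, chrX:49043358-49043607, minus strand) are printed from 5′ to 3′. Capitals mark the motif, from base -27 to base -3, whose guanine runs are on the opposite strand and read here as runs of C.
TFE3: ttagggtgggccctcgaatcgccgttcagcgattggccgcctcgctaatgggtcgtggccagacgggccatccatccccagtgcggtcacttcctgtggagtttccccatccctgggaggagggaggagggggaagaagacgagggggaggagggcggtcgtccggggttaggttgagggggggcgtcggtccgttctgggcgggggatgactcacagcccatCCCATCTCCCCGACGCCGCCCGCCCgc

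The target genes GPNMB and UVRAG both rose, GPNMB by far more. GPNMB (ENSG00000136235, chromosome 7) encodes a glycoprotein of lysosomes and melanosomes that is widely used as a readout of MiT/TFE activity. Its counts were 28.8, 23.2 and 29.7 in DMSO and 204, 211 and 222 in PhenDC3. The DMSO values rest on 30 to 43 reads a library and the PhenDC3 values on 142 to 172. No PhenDC3 library came near the DMSO range. The mean rose 7.80-fold, from 27.2 ± 3.51 to 212 ± 9.12 (SD, n = 3; limma, log2 fold change 2.92, SE 0.14, adjusted p = 1.18e-12). This was the largest change of the 10 genes, and 165 of the tested genes had a larger one.

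The GPNMB promoter is shown for its M-boxes, the element TCATGTG that MITF and its relatives bind. The 250 bases before the start site (RefSeq, GRCh38.p14, chr7:23246525-23246774, plus strand) follow, with the pair of M-boxes in capitals, read here from the opposite strand. They begin at bases -123 and -62 from the start site.
GPNMB: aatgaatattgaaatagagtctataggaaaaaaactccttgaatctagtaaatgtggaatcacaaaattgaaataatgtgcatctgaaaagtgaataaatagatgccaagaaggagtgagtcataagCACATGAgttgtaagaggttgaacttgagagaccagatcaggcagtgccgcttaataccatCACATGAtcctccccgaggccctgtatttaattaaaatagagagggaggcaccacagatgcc

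UVRAG (ENSG00000198382, chromosome 11) encodes a Beclin 1 binding protein that acts in the maturation of autophagosomes and endosomes. Counts were 300, 282 and 252 in DMSO and 467, 481 and 437 in PhenDC3. The groups were clearly apart, the gap between them being wider than the spread within either. The mean rose 1.66-fold, from 278 ± 24.3 to 462 ± 22.5 (SD, n = 3; limma, log2 fold change 0.73, SE 0.09, adjusted p = 5.99e-07). UVRAG shares 240 exonic bases with UVRAG-DT on the opposite strand, whose mean was 1.61 normalized counts.

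All 3 genes of the folliculin complex rose. FLCN (ENSG00000154803, chromosome 17), the tumour suppressor gene of Birt-Hogg-Dubé syndrome, had counts of 212, 145 and 200 in DMSO and 591, 479 and 565 in PhenDC3. Replicate 2 was the lowest library of each group, yet the lowest PhenDC3 library was far above the highest DMSO library. The mean rose 2.93-fold, from 186 ± 35.7 to 545 ± 58.3 (SD, n = 3; limma, log2 fold change 1.56, SE 0.12, adjusted p = 8.72e-10). FLCN shares 1161 exonic bases with AC055811.2 on the same strand, whose mean was 1.53 normalized counts, so how reads of the shared part were assigned is uncertain.

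FNIP1 (ENSG00000217128, chromosome 5) encodes a folliculin partner that also binds the energy sensor AMPK. It was at 329, 305 and 271 normalized counts in DMSO and at 929, 1035 and 963 in PhenDC3. The groups were far apart, with PhenDC3 replicate 2 the highest library. The mean rose 3.23-fold, from 302 ± 29.2 to 976 ± 53.9 (SD, n = 3; limma, log2 fold change 1.69, SE 0.08, adjusted p = 1.19e-12). It shares 281 exonic bases with AC008695.1 on the same strand, a gene not analysed here.

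FNIP2 (ENSG00000052795, chromosome 4), the other partner, moved least of the genes that passed. Its counts were 247, 244 and 200 in DMSO and 316, 339 and 340 in PhenDC3. The gap between the highest DMSO library and the lowest PhenDC3 library was larger than the range of either group. The mean rose 1.44-fold, from 230 ± 26.4 to 332 ± 13.6 (SD, n = 3; limma, log2 fold change 0.53, SE 0.10, adjusted p = 0.000111).

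Of the complex, FNIP1 has its promoter shown because it holds a pair of E-boxes, CACGTG, with the flanking base of the CLEAR element, through which the factors bind lysosomal genes. The 250 bases before the start site (RefSeq, GRCh38.p14, chr5:131797018-131797267, minus strand) follow. Capitals mark TCACGTG, both copies read here from the opposite strand, beginning at bases -175 and -94.
FNIP1: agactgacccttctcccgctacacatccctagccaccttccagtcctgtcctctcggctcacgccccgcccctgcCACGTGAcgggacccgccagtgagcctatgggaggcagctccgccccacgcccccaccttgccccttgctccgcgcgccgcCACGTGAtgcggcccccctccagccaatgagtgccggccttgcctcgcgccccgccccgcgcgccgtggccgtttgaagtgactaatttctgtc

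Both GTPase genes rose. RagC and RagD each pair with RagA or RagB on the lysosome, and the nucleotide bound to RagC or RagD is what the folliculin complex acts on. RRAGC (ENSG00000116954, chromosome 1) was at 351, 372 and 377 normalized counts in DMSO and at 1788, 1770 and 1792 in PhenDC3. The groups were far apart, and the PhenDC3 libraries were nearly equal. The mean rose 4.87-fold, from 366 ± 13.6 to 1784 ± 11.8 (SD, n = 3; limma, log2 fold change 2.28, SE 0.07, adjusted p = 5.89e-16). RRAGC shares 1183 exonic bases with AL139260.2 on the same strand, a gene not analysed here.

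RRAGD (ENSG00000025039, chromosome 6) was scarcer, with 59 to 66 reads a library in DMSO and 86 to 109 in PhenDC3. It was at 51.4, 45.6 and 43.4 normalized counts in DMSO and at 129, 128 and 134 in PhenDC3. The treated libraries were again close to each other and far from the controls. The mean rose 2.78-fold, from 46.8 ± 4.09 to 130 ± 3.11 (SD, n = 3; limma, log2 fold change 1.46, SE 0.14, adjusted p = 1.85e-08). Differences were small for RRAGA and RRAGB, the genes of the partner GTPases. RRAGA went from 664 ± 18.5 to 750 ± 9.1 (limma, log2 fold change 0.17, adjusted p = 0.0365), a call lost under 8 of 18 alternatives. These include the fits without DMSO replicates 1 or 2 or any PhenDC3 replicate, where the adjusted p reached 0.138. RRAGB was at 69.8 ± 9.18 and 92.0 ± 19.8 (adjusted p = 0.0524) and passed under 6 of them, such as without DMSO replicate 1 or without PhenDC3 replicate 2 (adjusted p = 0.0103 for the latter).

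The RRAGC promoter is shown because it holds a flanked E-box and a G quadruplex motif in the same window. The 250 bases before the start site (RefSeq, GRCh38.p14, chr1:38859773-38860022, minus strand) follow, with the flanked E-box in capitals from base -112 to base -106, read from the opposite strand. The G quadruplex motif runs from base -221 to base -199 on the printed strand.
RRAGC: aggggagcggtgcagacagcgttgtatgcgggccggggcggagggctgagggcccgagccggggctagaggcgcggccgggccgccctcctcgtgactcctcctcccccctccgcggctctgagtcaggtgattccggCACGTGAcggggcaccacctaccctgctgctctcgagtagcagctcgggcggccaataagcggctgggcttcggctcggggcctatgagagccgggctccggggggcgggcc

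**Figure D2:**
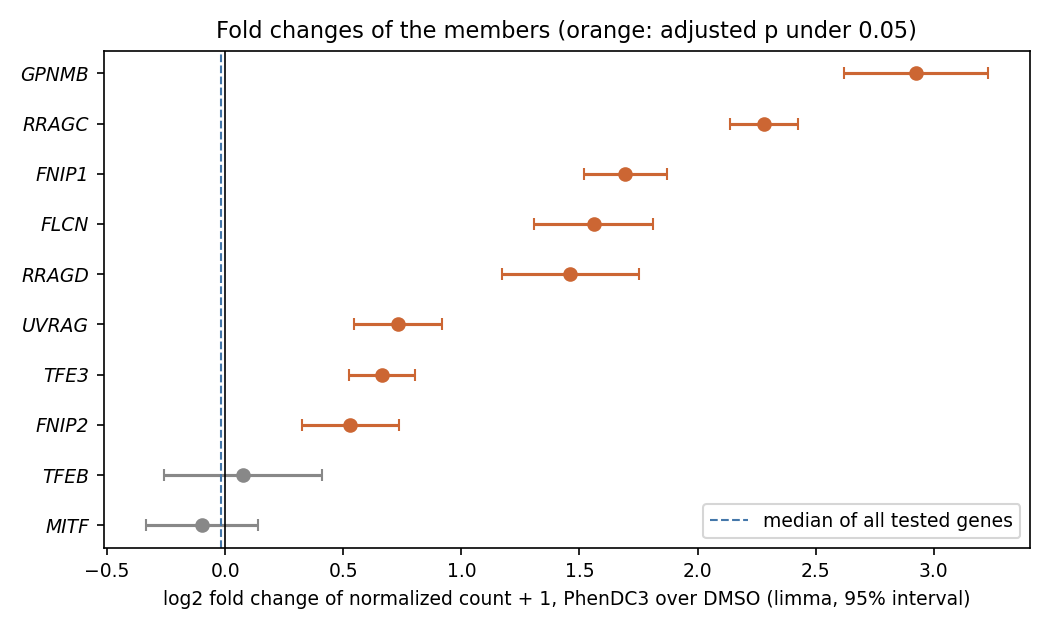
Log2 fold change of the normalized count plus 1 (horizontal axis) with its 95% interval from limma, for each gene. Orange genes passed an adjusted p of 0.05, and the dashed line is the median of all tested genes at -0.02. GPNMB at 2.92 and RRAGC at 2.28 lie farthest right, and the intervals of TFEB and MITF include 0.

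By the authors' deposited table the same 8 genes were called. The authors' deposited table gives log2 fold changes of 2.28 for RRAGC (adjusted p = 1.961e-174), 2.96 for GPNMB (adjusted p = 2.374e-45) and 0.53 for FNIP2 (adjusted p = 0.0001449). For MITF and TFEB the authors' deposited table gives -0.09 and 0.07, with adjusted p = 0.7056 and 0.8587.

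Whether close relatives rose by different amounts was examined as the log2 ratio of 6 pairs of genes within each library. Relative to FNIP1, FNIP2 went from a log2 ratio of -0.39 ± 0.06 in DMSO to -1.55 ± 0.05 in PhenDC3 (SD, n = 3; difference -1.16, two-sided exact permutation p = 0.1, adjusted over 6 pairs 0.15). The libraries of the groups did not overlap. With 3 libraries against 3 the exact permutation test cannot go below 0.1, so no pair could pass a threshold of 0.05. The ratio of RRAGD to RRAGC was -2.94 ± 0.17 in DMSO and -3.77 ± 0.03 in PhenDC3 (difference -0.82, exact permutation p = 0.1, adjusted 0.15). In both pairs the gene with the higher counts in DMSO had the larger fold change.

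Among the factors, TFE3 was compared with its relatives. The log2 ratio of TFE3 to TFEB was 4.04 ± 0.23 in DMSO and 4.63 ± 0.13 in PhenDC3, and that of MITF to TFE3 was -2.74 ± 0.06 and -3.50 ± 0.23 (SD, n = 3; exact permutation p = 0.1 and adjusted 0.15 for each). In both ratios the groups were apart. MITF to TFEB, at 1.30 ± 0.23 and 1.13 ± 0.15, and RRAGB to RRAGA, at -3.24 ± 0.17 and -3.04 ± 0.31, overlapped between the groups (exact permutation p = 0.4 for each).

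**Figure D3:**
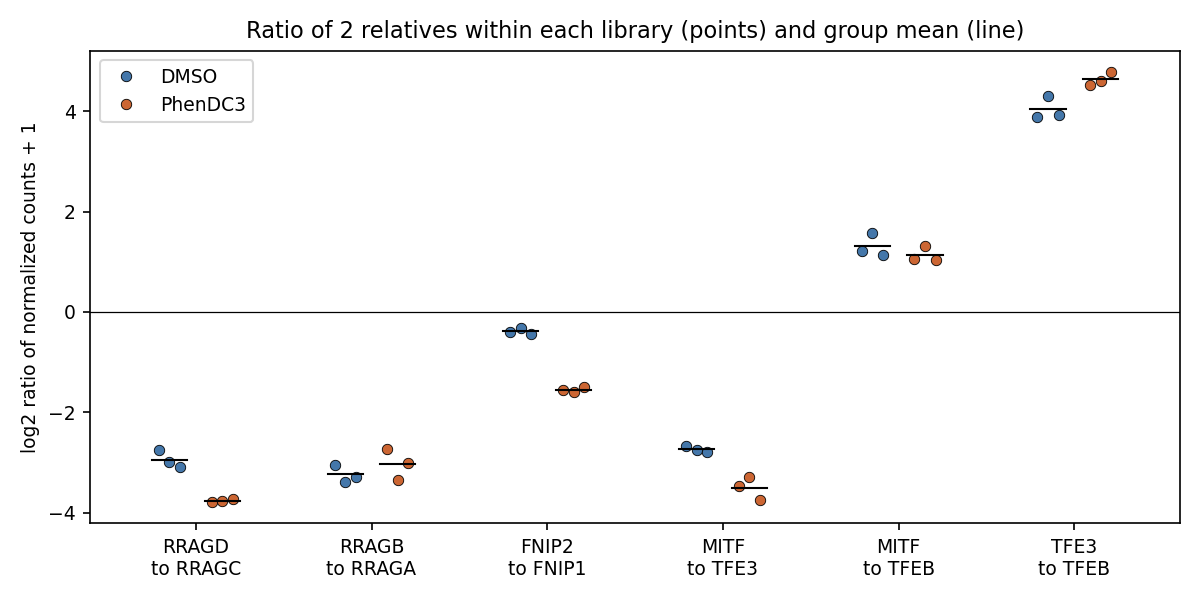
Log2 ratio of the normalized counts plus 1 of 2 related genes (vertical axis) within each library, for 6 pairs. Points are libraries and lines are means of 3. PhenDC3 and DMSO points are apart for RRAGD to RRAGC, FNIP2 to FNIP1, MITF to TFE3 and TFE3 to TFEB, and overlap for the other pairs.

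To compare levels between genes, normalized counts were divided by the length of the longest coding transcript in GENCODE 29. In DMSO, TFE3 was the highest at 321 ± 2.81 normalized counts per kilobase, followed by RRAGC at 134 ± 4.98, UVRAG at 67.4 ± 5.89, FLCN at 51.1 ± 9.81 and FNIP1 at 45.8 ± 4.43 (SD, n = 3). MITF at 33.9 ± 1.08, FNIP2 at 33.3 ± 3.81 and TFEB at 25.5 ± 3.99 came next, and RRAGD at 9.55 ± 0.835 and GPNMB at 9.51 ± 1.22 were lowest. At this length the neighbours whose libraries overlapped were FLCN and FNIP1, MITF and FNIP2, and RRAGD and GPNMB.

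With PhenDC3, and at the same length, RRAGC stood at 653 ± 4.33 normalized counts per kilobase and TFE3 at 510 ± 33.1. FLCN at 150 ± 16 and FNIP1 at 148 ± 8.18 overlapped, both above UVRAG at 112 ± 5.46 (SD, n = 3). GPNMB, at 74.2 ± 3.19, lay above FNIP2, MITF, TFEB and RRAGD. RRAGD at 26.6 ± 0.634 and TFEB at 26.7 ± 2.95 overlapped.

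Much of this order depended on the length used. With all annotated exons merged as the length, TFE3 and RRAGC changed order in PhenDC3. TFE3 was then the higher, at 406 ± 26.4 against 345 ± 2.29 normalized counts per kilobase. FLCN, at 55.7 ± 5.96, then lay below both FNIP1 at 123 ± 6.79 and UVRAG at 72.7 ± 3.55, and RRAGD at 25.7 ± 0.613 lay above TFEB at 12.3 ± 1.35, with no overlap in any of these pairs (SD, n = 3). In DMSO with merged exons FLCN, at 19.0 ± 3.65, was below FNIP1 at 38.0 ± 3.68, and RRAGD at 9.23 ± 0.807 was above GPNMB at 4.51 ± 0.58, again without overlap. The overlap of MITF and FNIP2 in DMSO and the place of TFE3 at the top in DMSO were found with both lengths. So was GPNMB's place below the other genes in DMSO, by mean, and above FNIP2, MITF, TFEB and RRAGD in PhenDC3. In DMSO, TFE3 was 12.6 times TFEB and RRAGC 14.0 times RRAGD with the longest coding transcript, and 21.9 and 7.69 times with merged exons.

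Promoter windows of 250 bases before to 50 bases after a start site were in the RefSeq table for 8 of the 10 genes, 13 windows in all. RRAGD and UVRAG had no entry. The E-box CACGTG occurred in the windows of RRAGC and FNIP1, and in 7.26% of all 35116 windows. TCACGTG, which contains the E-box and was sought on both strands, was in the same pair of genes and in 3.71% of windows. FNIP1 had 2 copies that do not overlap, as 0.327% of windows do. The full palindrome TCACGTGA was in no window of these genes and in 0.98% of all.

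The M-box TCATGTG had 2 copies in the GPNMB window. Of all windows 2.92% held at least 1 copy and 0.0968% held 2 or more. It was also in the second of 2 FNIP2 windows, beginning at base -142. FLCN, which rose 2.93-fold, and all 3 MITF windows held none of the motifs. A G quadruplex motif was in windows of RRAGC, TFE3 and TFEB, and in 25% of all windows, so its presence was not rare. It was found both in genes that rose and in TFEB, which did not pass. These are matches of letters in a limited window and do not show that a factor or the ligand binds there.

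**Figure D4:**
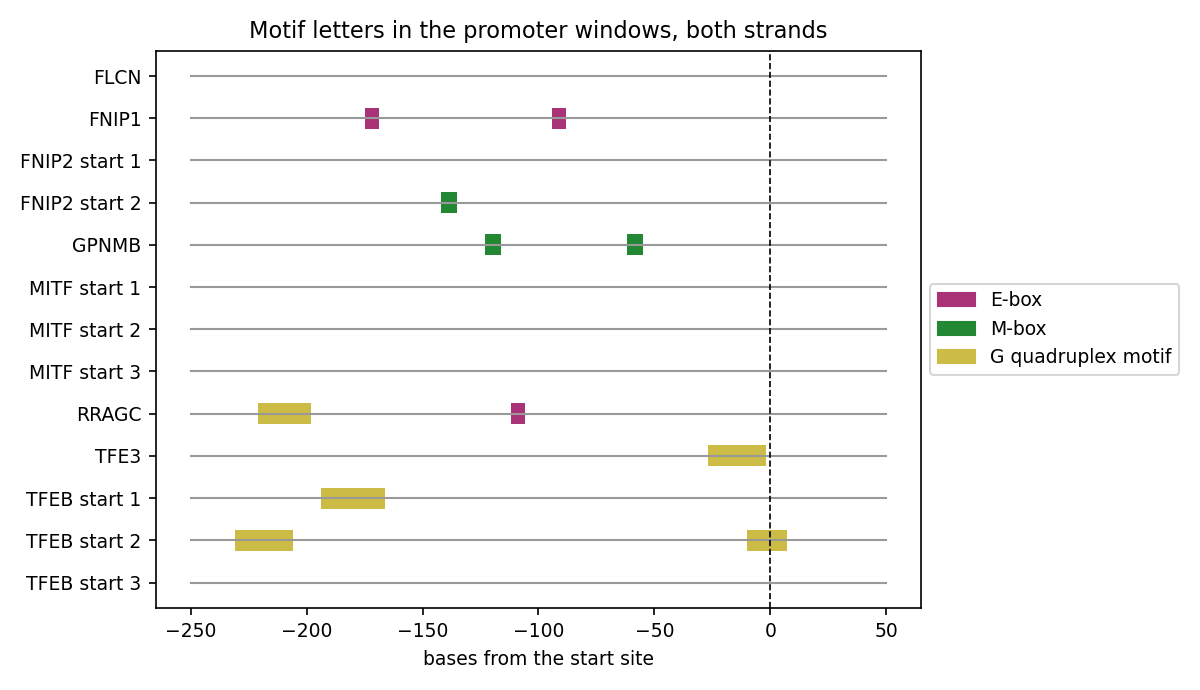
Position of E-boxes, M-boxes and G quadruplex motifs (coloured boxes) in bases from the start site (horizontal axis), on both strands of each promoter window. Genes with more than 1 start have their windows numbered by coordinate. FNIP1 and RRAGC carry E-boxes, GPNMB and FNIP2 M-boxes, and TFEB, TFE3 and RRAGC G quadruplex motifs.

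Other described targets of these factors, mostly lysosomal enzymes, pump subunits and autophagy proteins, also rose in most cases. Of 28 tested, 23 were higher and 2 lower, with a median log2 fold change of 0.81, against 29.2% higher, 30.4% lower and a median of -0.02 among all tested genes. The 4 with the smallest adjusted p were SQSTM1, an autophagy receptor, at 12.9-fold, GABARAPL1, an autophagosome protein, at 5.2-fold, MAP1LC3B, a relative of it, at 2.65-fold, and ATP6V1C1, a subunit of the proton pump, at 2.62-fold. MCOLN1, the lysosomal calcium channel that activates calcineurin, rose 2.63-fold, from 119 ± 11.8 to 314 ± 34.6 normalized counts (SD, n = 3; limma, adjusted p = 1.69e-09). The pair that fell were NAGLU, a hydrolase of heparan sulfate, to 0.759 of its DMSO level, and ASAH1, acid ceramidase, to 0.851, the latter a call lost under 9 of 18 alternatives, such as without DMSO replicates 2 or 3 or PhenDC3 replicates 2 or 3 (adjusted p up to 0.148). This list was written from general knowledge, but with earlier results of these data known, so its counts are not independent of them. Some of its members are stress genes with other known regulators.

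ATP6V0D2, chosen after its values were seen, had the largest log2 fold change of this list, at 3.75 (limma, adjusted p = 4.67e-08). It encodes a pump subunit typical of osteoclasts. It had 1, 5 and 3 reads in DMSO and 36, 31 and 23 in PhenDC3, so its size is imprecise.

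For the machinery that places the Rag GTPases and senses amino acids, the counts were near those of all genes. Of 24 tested genes 8 were higher and 6 lower, beside 29.2% and 30.4% of all tested genes, with a median log2 fold change of 0.17. SESN2, a leucine sensor induced by stress, rose 2.71-fold, from 415 ± 15.2 to 1124 ± 94.0 normalized counts (SD, n = 3; limma, adjusted p = 4.42e-12). WDR59, of the GATOR2 complex, rose 1.94-fold and LAMTOR3, of the Ragulator scaffold, 1.5-fold. Neither complex moved as 1. In GATOR2, WDR24 also rose, SEC13 fell to 0.844 of its DMSO level, and MIOS and SEH1L were not called. In Ragulator, LAMTOR2 fell to 0.771, and LAMTOR4 and LAMTOR5 were not called. Unlike SESN2, the other sestrin genes fell, SESN1 to 0.702 and SESN3 to 0.456 of the DMSO level. The arginine sensor gene SLC38A9 fell to 0.752. LAMTOR1, the membrane anchor of Ragulator, was at 743 ± 60.6 and 814 ± 63.9 (adjusted p = 0.16). It passed only when DMSO replicate 3 was left out (adjusted p = 0.0187).

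A list of 11 genes covered mTORC1, the TSC complex, which restrains it, and RHEB, RPS6KB1 and EIF4EBP1, which encode subunits of neither. Of these 11 genes 5 were lower and 1 higher, beside 30.4% lower and 29.2% higher among all tested genes. Their median log2 fold change was -0.18. The lower genes included RHEB, RPS6KB1 and EIF4EBP1, so the counts do not describe the complexes alone. The rise was AKT1S1, an inhibitory subunit, at 1.70-fold. EIF4EBP1, a translational repressor and substrate of mTORC1, fell to 0.618 of its DMSO level, TBC1D7 to 0.720 and MLST8 to 0.770, the last a call lost without the variance trend (adjusted p = 0.0685). MTOR itself was at 1453 ± 210 and 1274 ± 60.1 normalized counts (limma, adjusted p = 0.0777), and passed as lower without DMSO replicate 3 (adjusted p = 6.78e-05) and with a replicate block (adjusted p = 0.02). RPTOR (adjusted p = 0.2) and the scarce DEPTOR (adjusted p = 0.107) did not pass.

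Of 16 genes for proteins that modify, hold or export the factors, 6 were higher and 4 lower, near the 29.2% and 30.4% of all tested genes, with a median log2 fold change of 0.08. Beside MCOLN1, GSK3B, a kinase of the factors, rose 1.30-fold. PPP3CB, a catalytic subunit of the phosphatase calcineurin, fell to 0.554 of its DMSO level, and YWHAH, a scaffold that binds phosphorylated proteins, to 0.636. The calcineurin genes did not move together. PPP3CA, another catalytic subunit, rose 1.17-fold (limma, adjusted p = 0.01), and PPP3R1, a regulatory subunit, was not called (adjusted p = 0.911). In the group around UVRAG, the Beclin 1 and class III PI 3-kinase complex with its tethering partners, 4 of 9 were higher and 2 lower, beside the same 29.2% and 30.4%, with a median of 0.10. VPS18 rose 1.89-fold, ATG14, which competes with UVRAG for Beclin 1, 1.75-fold, and RAB7A, the late endosome GTPase, 1.43-fold. VPS16 fell to 0.835 of its DMSO level, a call lost without PhenDC3 replicate 2 (adjusted p = 0.0513). PIK3R4 fell to 0.887, a call lost under 10 of 18 alternatives, such as without DMSO replicates 1 or 2 or PhenDC3 replicates 1 or 3 (adjusted p up to 0.181). PIK3C3 (adjusted p = 0.712), BECN1 (0.435) and RUBCN (0.263) did not pass.

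**Figure D5:**
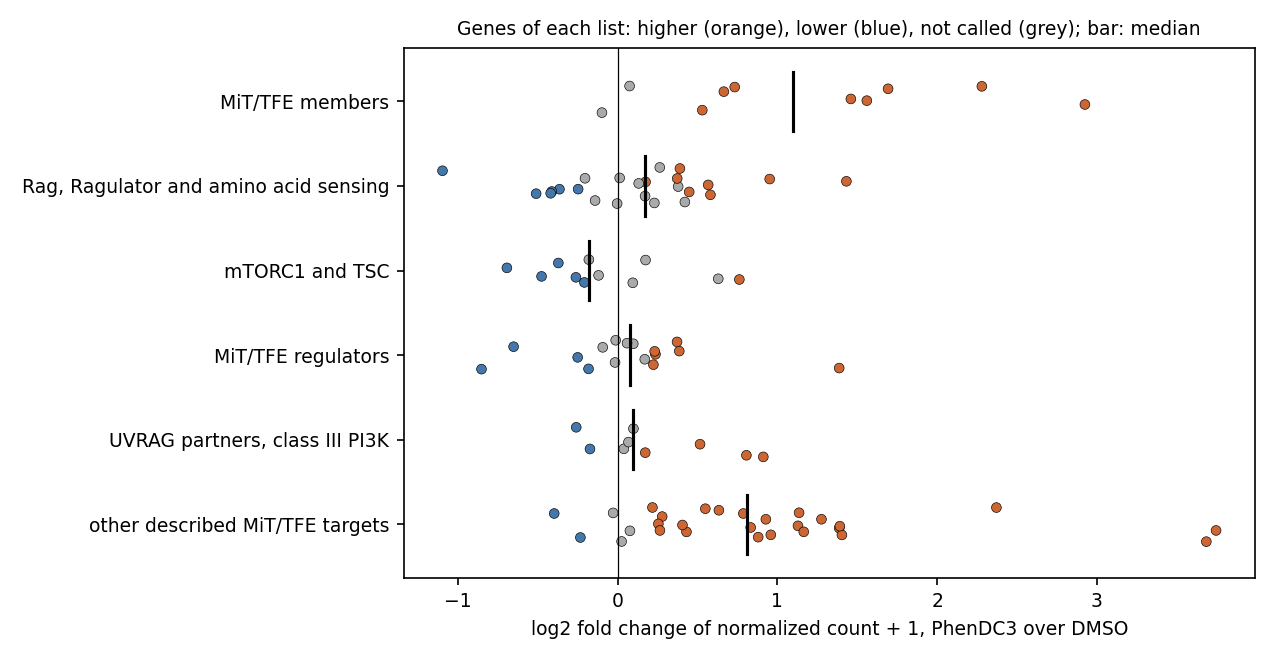
Log2 fold change of the normalized count plus 1 (horizontal axis) for the tested genes of each list, 1 point a gene. Orange points were called higher, blue lower and grey not called, and black bars are medians. The members and the other described targets have medians of 1.10 and 0.81, while the other 4 lists lie near 0, between -0.18 and 0.17.

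GPNMB and MITF are also typical of pigment cells and GPNMB of macrophages, so markers of these cells were examined. Of 7 pigment cell markers 4 were tested, with TYRP1 higher at 9.53 ± 3.82 and 17.6 ± 5.25 normalized counts (limma, adjusted p = 0.0346). This call rests on few reads, 10, 18 and 10 in DMSO and 12, 10 and 18 in PhenDC3. DCT was at 59.5 ± 11.7 and 67.6 ± 11.7 (adjusted p = 0.38). PMEL (adjusted p = 0.16) and MLANA (adjusted p = 0.971) did not pass either. Summed with the untested SOX10, the 4 tested pigment cell markers were at 70.8 to 95.9 in DMSO and 103 to 107 in PhenDC3. DCT, which was not called, made up most of this sum. SOX10 itself was at or under 2 reads in every library. Of 8 macrophage and osteoclast markers 5 were tested, CD68 and ACP5 being higher and OSCAR lower, and CD163 had 0 reads in all DMSO libraries and 1 or 2 in PhenDC3. Their summed level, the untested CD163 included, was 99.0 to 127 in DMSO and 74.8 to 95.3 in PhenDC3. OSCAR made up most of the DMSO sum, going from 74.4 ± 7.87 to 15.9 ± 1.77, while CD68 went from 5.98 ± 1.62 to 15.4 ± 6.51 and ACP5 from 6.81 ± 3.09 to 16.5 ± 2.71 normalized counts (SD, n = 3). CSF1R (adjusted p = 0.138) and CTSK (adjusted p = 0.209) did not pass, and the median log2 fold change of the 5 was 0.69. CD68 and ACP5 encode lysosomal proteins. Reads of CD68 were 10, 6 and 8 in DMSO and 16, 13 and 6 in PhenDC3. Those of ACP5 were 7, 6 and 15 in DMSO and 15, 9 and 14 in PhenDC3, so both calls rest on few reads.

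Of 7 fibroblast and mesenchymal markers 5 were tested, of which 2 were higher and 2 lower, with VIM at 25150 ± 2160 and 13620 ± 153 normalized counts, lower in PhenDC3, and COL6A1 at 2010 ± 110 and 2619 ± 275 (SD, n = 3). COL1A2 and THY1 were too low to test. Of the epithelial and endothelial markers KRT8, KRT18, CLDN4 and EGFL7 were tested, and KRT8 was higher, at 1190 ± 137 and 1366 ± 87.3 (limma, adjusted p = 0.0339). The part of other cell types in the results was not tested.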

How the data were processed

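RNA from 6 HT-1080 libraries, 3 per group, was made into libraries with a stranded mRNA kit, per the labels' protocols. The authors deposited signal values that are gene read counts divided by 1 size factor per library, with their own log2 fold changes and adjusted p-values. Tools listed in the submitters' processing notes, with no role given, are STAR 2.7, featureCounts, DESeq2 1.18.1, TopHat2 2.0.11, CASAVA, Cuffdiff and Cufflinks 2.2.1, and the build is hg19. The annotation and the strand setting of the counting were not given in the sources used here. In every deposited column 100% of values were whole multiples of what 1 read is worth, within a relative tolerance of 1e-06.

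Differences were tested by limma 3.58.1 (R 4.3.3), without a block and with a variance trend, on the log2 of the value plus a pseudocount of 1, where the mean was at least 5. The design named edgeR only if the table had held counts. On the recovered reads edgeR 4.0.16 called 9817 and DESeq2 1.42.0 8592 of 16482 genes, against 9818 by limma. On simulated reads of 16445 genes, limma recovered 65.7% of genes changed 1.5-fold, 97.0% changed 2-fold and 100% changed 4-fold, with 4 false calls among 179. The simulation changed only a small number of well counted genes and gave every gene the same variability between libraries. In the real comparison 59.6% of genes were called, so these rates may not hold there, nor for scarce genes. Symbols came from the table, completed by a reference table of gene names.

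The members and gene lists were chosen with earlier results of these data known. Named genes are the members, 14 partners fixed by name, and of each list the 4 called genes with the smallest adjusted p and up to 2 that moved against the majority. Other genes are named as markers, as further genes of a list or complex, or as said. CASTOR2, TYR, TRPM1, PTPRC, CD14, EPCAM, CDH1, PECAM1 and CDH5 were not analysed here. Lengths and exon overlaps are from GENCODE 29 and promoters from RefSeq (GRCh38.p14), none of whose coordinates were joined to the hg19-based values. A planned comparison of protein sequences was not run. Python 3.11.15, pandas 2.3.3 and matplotlib 3.10.9 were used.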

Additional observations from a re-analysis of the deposited data

How the results depend on the processing

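All alternatives were planned. Across the 18 run, 8 members were called each time, and of 180 values for the members 177 kept their call and direction. The 3 that did not were uncalled values near 0: TFEB ranged from -0.06 to 0.15 and MITF from -0.15 to 0.00 when 1 library was left out. PIK3C3, also not called, ranged from -0.02 to 0.11 in those fits. The calls of all genes, 9818 in the main fit, ranged from 8937 to 9646 with 1 library left out and from 8134 to 10454 otherwise, and no scaling moved the median of all genes by over 0.1. With merged exons as length, TFE3 in DMSO was 21.9 times TFEB (12.6 with the longest coding transcript) and 11.2 times MITF (9.46), and RRAGC 7.69 times RRAGD (14.0), and the order of several genes turned, as given with the levels. The 6 paralog ratios kept their direction under both kinds of alternative run. With the replicate block 10155 genes and the same number of members, 8, were called. Residual correlations of same-numbered libraries were small, at 0.008, 0.071 and 0.027, and 2 of 3 PhenDC3 libraries correlated best with their own number. With 3 libraries a group, this cannot decide whether replicate numbers pair the libraries. Low read numbers limit precision for TFEB, at 44 to 104 reads a library, and for GPNMB in DMSO, at 30 to 43. Thinned to equal depth, RRAGD gave a log2 fold change of 1.20 against 1.46.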
